A study of Malus domestica with 9 samples.

Results

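Chalcone synthase transcripts were followed over the first day of light in the peel of bagged apple fruit (Malus domestica). The copies described here are 3 loci of the GDDH13 apple genome annotation, listed as gene:MD04G1003300, gene:MD04G1003400 and gene:MD13G1285100 and written here without the prefix, which are 3 of the 46558 genes in the deposited table. The rule that picks them uses the identifier alone, as chalcone synthase loci, and no measured value. The identifiers place MD04G1003300 and MD04G1003400 next to each other on chromosome 4 and MD13G1285100 on chromosome 13. The deposited table lists identifiers without names and 0 of them occur in the RefSeq gene table at hand, so the enzyme name rests on the identifier and was not checked against sequence. Whether the genome holds further chalcone synthase loci was not examined, and statements on the copies cover these 3 loci.

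Peel was sampled from fruit that had grown in bags, after 0 h, 6 h or 24 h of light following removal of the bag, and 3 libraries per time, described as biological replicates, were sequenced (9 in all). The labels name neither the cultivar nor fruit age, nor whether a replicate was 1 fruit, 1 tree or a pool, so the p-values speak only of the variation among these 9 libraries. No fruit was kept in its bag until 6 h or 24 h, so light, bag removal and, at 6 h, time of day cannot be told apart. The peel identity of the samples was not checked, since no peel marker is named in the table, and fewer cells with a transcript and less transcript per cell cannot be told apart in such bulk samples.

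Chalcone synthase catalyses the first committed step of flavonoid synthesis, the condensation of p-coumaroyl-CoA with malonyl-CoA units to naringenin chalcone. Chalcone isomerase and the enzymes after it turn this product into flavonols, proanthocyanidins and the anthocyanins that colour red apple peel. In many plants chalcone synthase genes are light-responsive, and plant genomes often carry several copies of them.

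The libraries held 15.3 to 19.5 M (mega) reads in genes. Values are FPKM, reads or fragments (here called reads) per kilobase of gene model and per M of a library denominator. The scaling allows for length, but levels of similar copies also depend on how shared reads were assigned, which is not stated. The library denominator lay above the reads in genes in each 0 h and 6 h library and below them in each 24 h library. In the third 24 h library it was 16.2 M against 19.5 M reads in genes. How it was set is not stated, and FPKM differences between times depend on it. The third 24 h library stood apart over all tested genes, with a residual SD of 0.328 on the log2 scale, while the other 8 had 0.123 to 0.195, and its FPKM summed to 870488 against 635836 to 704706. The main 24 h values are therefore also given as FPKM per M of the library's summed FPKM, or without that library.

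MD04G1003400 was the most abundant of the 3 copies at every time. It stood at 26.6, 20.8 and 24.6 FPKM in the 0 h libraries 1, 2 and 3, at 178.1, 169.04 and 186.98 FPKM in the 6 h libraries, and at 1569, 1660.03 and 2472 FPKM in the 24 h libraries. The lowest 6 h library lay 6.36-fold above the highest 0 h library, and the lowest 24 h library 8.39-fold above the highest 6 h library. The 3 means, in order of time, were 24.0 ± 2.92, 178.04 ± 8.97 and 1900.3 ± 497.4 FPKM (SD, n = 3 each). In the order of all genes by FPKM, this copy was between rank 4204 and rank 5683 in the 0 h libraries, between 441 and 530 at 6 h, and at rank 18 or 19 in each 24 h library.

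MD04G1003300, the neighbouring copy, started low and rose most of the 3 copies by 24 h, though least by 6 h. Its values were 4.49, 4.10 and 3.15 FPKM in the 0 h libraries, 19.03, 21.8 and 25.7 FPKM at 6 h, and 772.1, 755.7 and 1197 FPKM at 24 h. The times did not overlap, and the lowest 24 h library was 29.4-fold above the highest 6 h library. The means were 3.92 ± 0.689, 22.2 ± 3.36 and 908.3 ± 250.3 FPKM (SD, n = 3 each). This copy moved from ranks 17492 to 19740 at 0 h to ranks 39 to 44 at 24 h.

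MD13G1285100, the copy on chromosome 13, was the lowest of the 3 copies in each of the 9 libraries. It measured 2.67, 2.51 and 2.21 FPKM at 0 h, 16.9, 17.2 and 19.6 FPKM at 6 h, and 301.8, 313.2 and 400.9 FPKM at 24 h. Its times did not overlap either. The means were 2.46 ± 0.236, 17.9 ± 1.49 and 338.7 ± 54.2 FPKM (SD, n = 3 each). At 24 h it stood at ranks 230 to 251, well below both chromosome 4 copies.

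**Figure D1:**
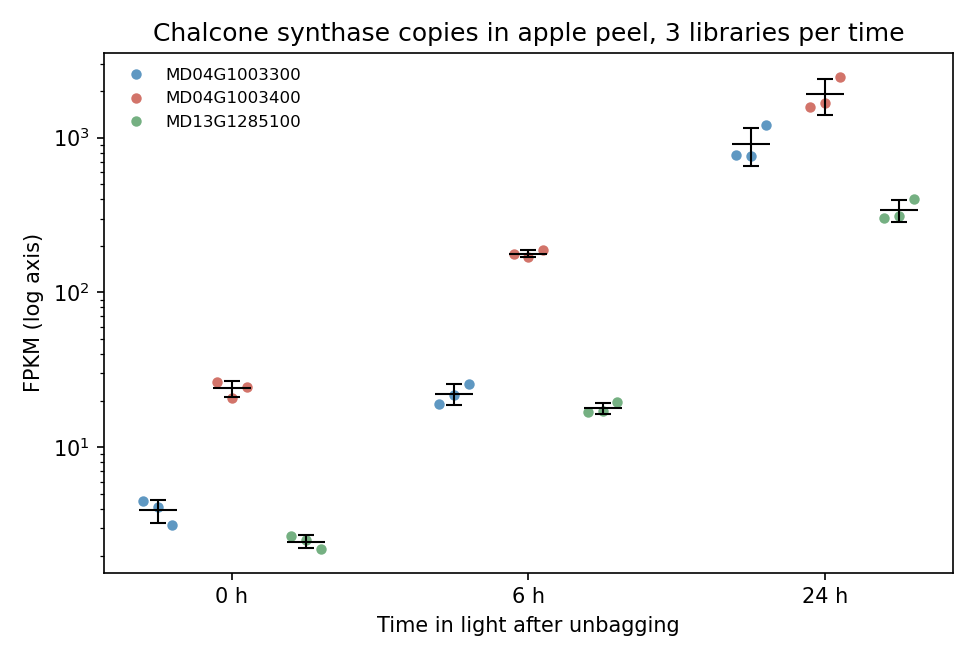
FPKM (log axis) of the 3 chalcone synthase copies at 0 h, 6 h and 24 h of light. Points are single libraries, and black bars give the mean and SD (n = 3); for each copy all 3 libraries of a later time lie above all libraries of the earlier time, and MD04G1003400 is the highest copy at each time.

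The depth behind these values was uneven over time. Reads of MD13G1285100 numbered 50 to 67 per library at 0 h and 7053 to 8949 at 24 h, and those of MD04G1003300 numbered 78 to 123 and 19724 to 29216. For the lowest value of all, 2.21 FPKM from 50 reads, the exact 95% Poisson interval was 1.64 to 2.91 FPKM, which covers counting error only. At 24 h counting error was small beside the spread between libraries: the interval of MD04G1003300 in the first library was 761.3 to 782.9 FPKM, while the libraries ranged from 755.7 to 1197 FPKM.

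The comparison of 6 h with 0 h asks whether the copies changed early after unbagging. All 3 of 3 copies rose, against 9.36% of the 25362 tested genes called higher in this comparison. A call required an adjusted p under 0.05 and a log2 difference of at least 1 in the limma model of log2(FPKM + 1), with the Benjamini-Hochberg adjustment over all tested genes. The log2 difference was 2.84 for MD04G1003400 (SE 0.168, limma adjusted p = 4.74e-07), 2.45 for MD13G1285100 (SE 0.117, limma adjusted p = 1.13e-07) and 2.24 for MD04G1003300 (SE 0.186, limma adjusted p = 5e-06). The libraries of 6 h lay above all those of 0 h for each copy, which held for 35.8% of the tested genes. As ratios of mean FPKM, the rises were 7.41-fold, 7.28-fold and 5.67-fold. By log2 difference these rises ranked 346, 486 and 625 of the 25362 tested genes. The ranks depend on the pseudocount, which shrinks the rises of copies that start low. Without it, the log2 differences were 2.90 for MD04G1003400, 2.86 for MD13G1285100 and 2.51 for MD04G1003300.

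Set against 0 h, the 24 h libraries give the change over the first day. All 3 copies rose, against 11.9% of tested genes called higher and 34% whose 24 h libraries all lay above those of 0 h. MD04G1003300 led with 7.51 log2 units (SE 0.186, limma adjusted p = 1.09e-09), rank 4 of the 25362 tested genes. MD13G1285100 followed at 6.61 (SE 0.117, limma adjusted p = 2.42e-10), rank 10, and MD04G1003400 at 6.22 (SE 0.168, limma adjusted p = 1.44e-09), rank 18. The copy with the smallest log2 rise was thus the one with the highest level throughout. The pseudocount of 1 shrinks the log2 differences of copies that start low. The ratios of mean FPKM were 232.01 for MD04G1003300, 137.4 for MD13G1285100 and 79.1 for MD04G1003400, and per M of summed FPKM they were 199.3, 119.3 and 68.1. The median log2 difference of the 3 copies was 6.61, beside 0.00391 over all tested genes.

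Between 6 h and 24 h the copies rose again, all 3 of 3, against 8.66% of tested genes called higher and 30.8% with libraries that did not overlap upwards. The log2 differences were 5.27 for MD04G1003300 (SE 0.186, limma adjusted p = 1.19e-08), 4.16 for MD13G1285100 (SE 0.117, limma adjusted p = 3.59e-09) and 3.38 for MD04G1003400 (SE 0.168, limma adjusted p = 1.08e-07). In mean FPKM these were rises of 40.9-fold, 18.9-fold and 10.7-fold, and per M of summed FPKM of 35.7-fold, 16.6-fold and 9.31-fold. Without the third 24 h library the log2 differences were 5.05, 4.03 and 3.17. All 3 copies were therefore called higher in each of the 3 comparisons, a pattern shared by 219 genes or 0.863% of those tested. The comparisons share libraries with each other, so these calls are not independent.

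**Figure D2:**
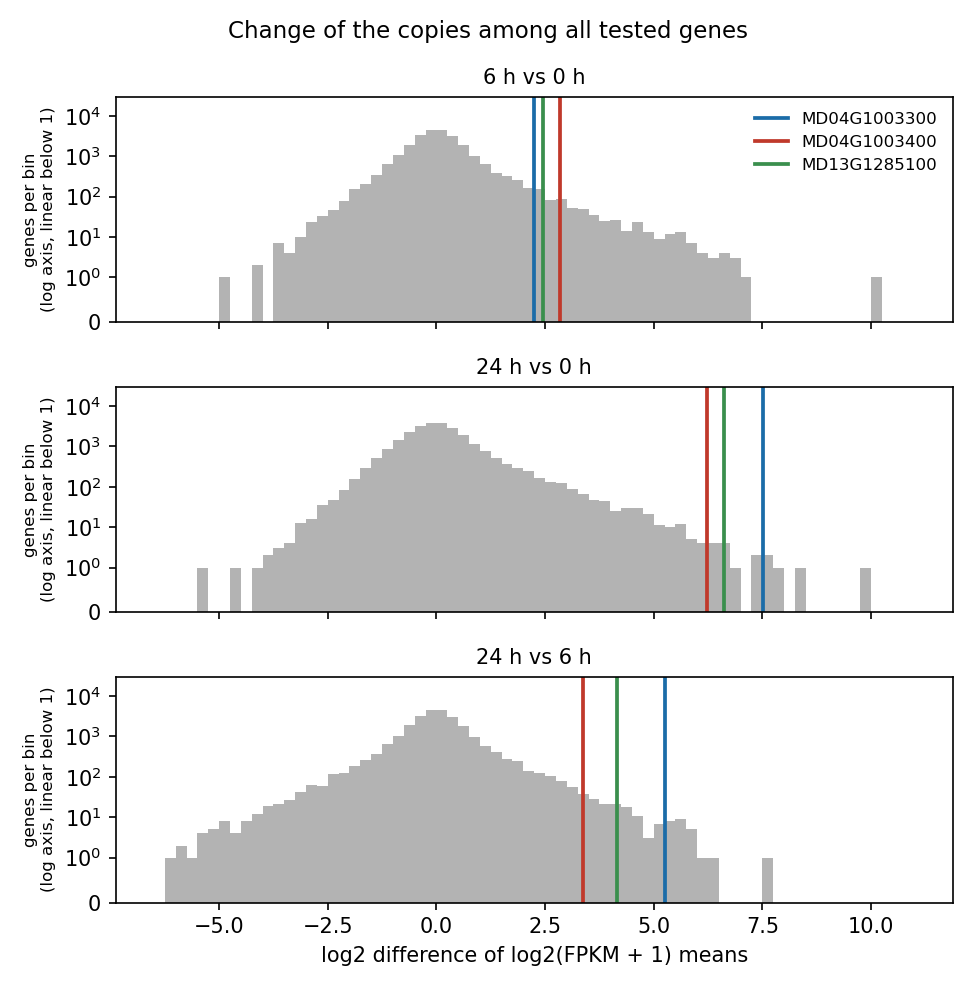
Number of tested genes (log axis, linear below 1) by log2 difference between times, in bins of 0.25, for the 3 comparisons. Vertical lines mark the 3 copies, which lie within the right shoulder at 6 h against 0 h (ranks 346 to 625 of 25362) and at the far right at 24 h against 0 h (ranks 4 to 18).

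Most of the gain came after 6 h, which was also the longer interval. By 6 h, MD04G1003400 had made 8.21% of its gain in mean FPKM between 0 h and 24 h, MD13G1285100 4.60% and MD04G1003300 2.02%. Without the third 24 h library these shares were 9.69%, 5.07% and 2.41%. On the log2(FPKM + 1) scale, with all libraries, they were 45.7%, 37.1% and 29.8%. The order of the copies was the same on both scales, with the largest share for MD04G1003400 and the smallest for MD04G1003300. Such a share also depends on the size of the later rise, and the order was not tested. Up to 6 h, MD04G1003400 and MD13G1285100 rose by similar ratios of mean FPKM, 7.41 and 7.28. Sampling at 3 times does not show when between 6 h and 24 h the levels were reached.

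The order of the levels was the same in all 9 libraries: MD04G1003400 above MD04G1003300 above MD13G1285100. In an exact two-sided sign-flip permutation test of the within-library differences in log2(FPKM + 1), each of the 3 pairs gave p = 0.00391, the smallest value 9 libraries allow (adjusted over the 3 pairs, 0.00391). The mean difference over the 9 libraries was 2.13 log2 units in favour of MD04G1003400 over MD04G1003300, 0.73 for MD04G1003300 over MD13G1285100, and 2.85 for MD04G1003400 over MD13G1285100. The gap between the lower copies was narrow early on. At 6 h MD04G1003300 was only 1.12 to 1.31 times MD13G1285100, but the sign was the same in each library.

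The ratios between copies did not stay constant. At 0 h, MD04G1003300 reached 0.165 ± 0.0346 of the FPKM of MD04G1003400 in the same library. This ratio was 0.125 ± 0.0159 at 6 h and ended at 0.477 ± 0.0194 (SD, n = 3 each). The 24 h libraries, at 0.455 to 0.492, lay above all others, while those of 0 h and 6 h overlapped, at 0.128 to 0.197 and 0.107 to 0.138. An exact permutation test of the F statistic over the 3 times, on the within-library difference in log2(FPKM + 1), gave p = 0.00357, the smallest that all arrangements of 9 libraries allow (adjusted over the 3 pairs, 0.00536). The ratios above hold no pseudocount, and without one the exact permutation test gave p = 0.0107 (adjusted 0.0161).

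The ratio of MD04G1003300 to MD13G1285100 began at 1.58 ± 0.135, was 1.23 ± 0.0969 at 6 h and ended at 2.65 ± 0.298 (SD, n = 3 each), and no times overlapped. The exact permutation test gave p = 0.00714 (adjusted over the 3 pairs, 0.00714), and without a pseudocount p = 0.00357 (adjusted 0.0107). The ratio was lower in every 6 h library than in any 0 h library and higher in every 24 h library than in both earlier groups. The 0 h ratios rest on few reads, 78 to 123 for MD04G1003300 and 50 to 67 for MD13G1285100 per library. From 0 h to 6 h the log2 ratio changed by -0.21 with a pseudocount of 1, by -0.36 with none and by only -0.013 with 5. Single steps between 2 times were not tested, since 3 libraries against 3 cannot give an exact p under 0.1. When libraries were permuted only within replicate numbers, this pair alone missed the threshold, at an adjusted p of 0.0556 by the exact permutation test.

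The ratio of MD04G1003400 to MD13G1285100 was 9.80 ± 1.43 at 0 h and 9.95 ± 0.517 at 6 h, and stood at 5.55 ± 0.532 by 24 h (SD, n = 3 each). The 24 h libraries, at 5.20 to 6.17, lay below all others, while 0 h (8.31 to 11.1) and 6 h (9.52 to 10.5) overlapped. The exact permutation test on log2(FPKM + 1) gave p = 0.00357 (adjusted over the 3 pairs, 0.00536). Without a pseudocount the exact permutation test gave a larger p of 0.0321 (adjusted 0.0321). The FPKM ratio itself, which holds no pseudocount, was lower in every 24 h library than in any 0 h library. On the log2 scale with a pseudocount, the direction between 0 h and 24 h hung on its size, since MD13G1285100 began at only a few FPKM. The log2 ratio changed by -0.38 with a pseudocount of 1, by -0.81 with none and by 0.50 with 5.

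**Figure D3:**
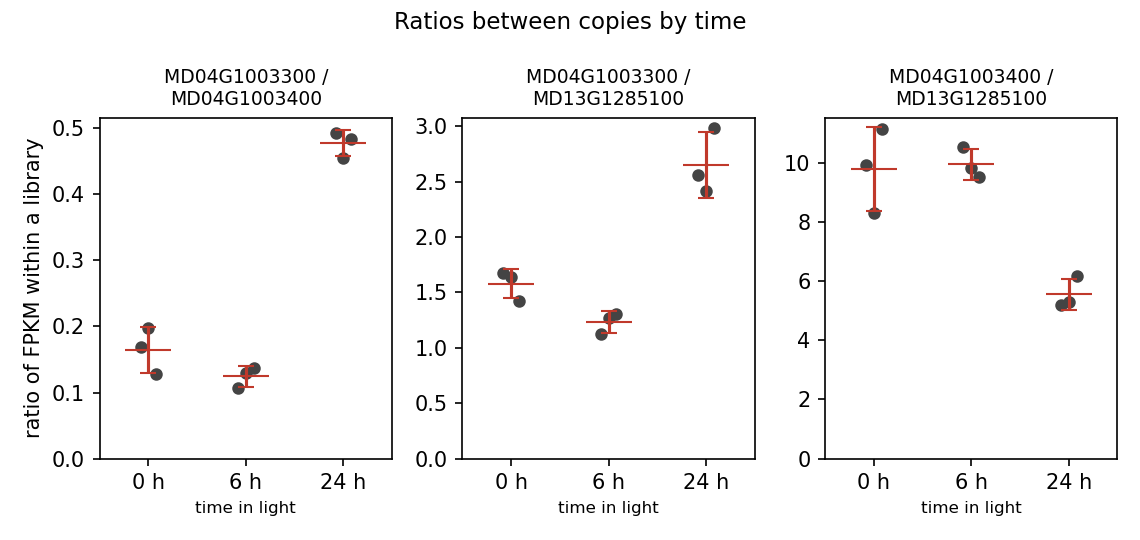
Ratio of FPKM between copies within each library (black points) at 0 h, 6 h and 24 h, with mean and SD in red (n = 3). MD04G1003300 gains on both other copies at 24 h, and the ratio of MD04G1003400 to MD13G1285100 drops from 9.95 at 6 h to 5.55 at 24 h.

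Taking the 3 copies as one pool, their summed level started at 30.4 ± 3.17 FPKM, was 218.2 ± 12.6 FPKM at 6 h and ended at 3147 ± 800.6 FPKM (SD, n = 3 each). Per M of summed FPKM these levels were 45.98 ± 6.40, 325.8 ± 19.4 and 4101 ± 502.3 (SD, n = 3 each). MD04G1003400 supplied 78.9% ± 3.11 of this sum before light, 81.6% ± 1.41 at 6 h and 60.3% ± 0.823 after the full day (SD, n = 3 each). MD04G1003300 supplied 12.9% ± 2.24, 10.2% ± 1.13 and 28.8% ± 0.941, and MD13G1285100 supplied 8.14% ± 0.906, 8.21% ± 0.280 and 10.9% ± 0.924. The share of MD04G1003300 at 24 h, 27.7% to 29.4%, was the tightest of its 3 times although its FPKM spread by 1.58-fold between the same libraries. Each gene's values were whole multiples of a common step, taken as 1 read. Gene length was fitted together with the reads, so this cannot show whether reads had been divided into fractions. How the authors assigned reads that match both chromosome 4 copies is not stated in the labels, and its part in the shift between them was not tested. The sum of the chromosome 4 copies hardly depends on which of them a read was assigned to. It would depend on whether reads matching both were dropped or counted for each, or were shared with other loci, which was not tested. This sum rose from 27.9 ± 3.07 over 200.2 ± 11.2 to 2809 ± 746.4 FPKM (SD, n = 3 each), and its ratio of 24 h to 0 h was 100.6, or 86.5 per M of summed FPKM.

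**Figure D4:**
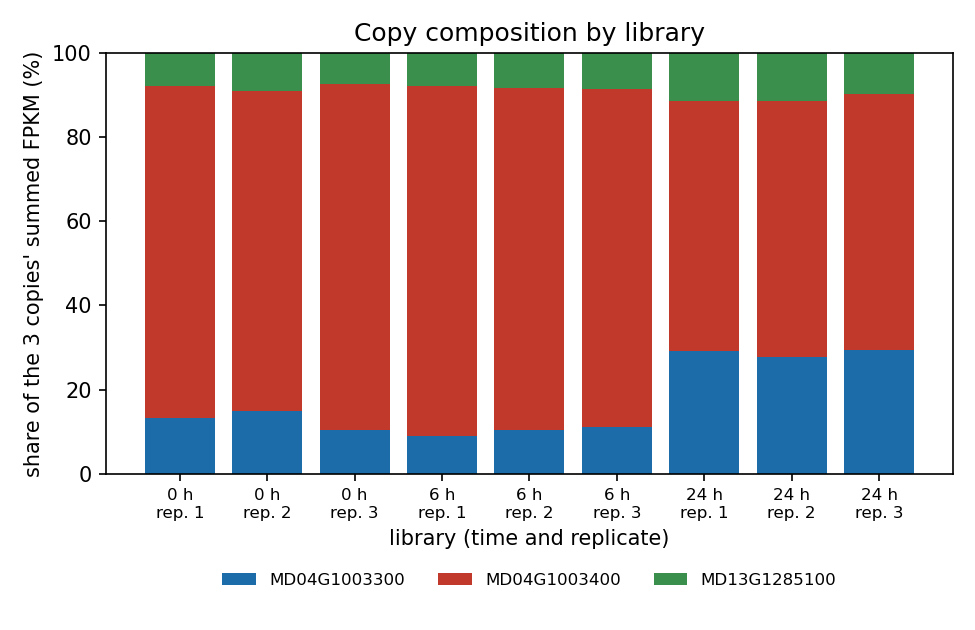
Share of each copy in the summed FPKM of the 3 copies, in percent, for each of the 9 libraries. MD04G1003400 makes up 75.9% to 83.2% of the sum in the 0 h and 6 h libraries and 59.4% to 60.8% at 24 h.

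The copies shared their highest library within each time, but not the order of the other libraries. At 0 h the first library was the highest for each of the 3 copies, and at 6 h and 24 h the third library was. In the 24 h group the third library was 1.58-fold above the lowest for both chromosome 4 copies and 1.33-fold for MD13G1285100. Per M of summed FPKM the 24 h ranges were narrower, at 1073 to 1375 for MD04G1003300, 2226 to 2840 for MD04G1003400 and 428.3 to 460.6 for MD13G1285100. Without that library the log2 differences of 24 h against 0 h were the lowest of the single-library omissions, at 7.29, 6.02 and 6.48 for MD04G1003300, MD04G1003400 and MD13G1285100.

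Over the 9 libraries, log2(FPKM + 1) of MD13G1285100 correlated at r = 0.996 with MD04G1003300 and at r = 0.994 with MD04G1003400, and the chromosome 4 neighbours correlated with each other at r = 0.983. These are descriptions over 9 libraries that fall into 3 separate times. Many genes followed the same course: 1341 genes (5.29%) had an r of at least 0.95 with MD04G1003300, 1169 (4.61%) with MD04G1003400 and 1251 (4.93%) with MD13G1285100. MD04G1003400 was the gene at place 374 in likeness to its neighbour MD04G1003300, and MD13G1285100 was at place 38.

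The gene whose course was most like that of the summed copies, MD04G1003000, lies on the same stretch of chromosome 4, with an identifier 3 steps below MD04G1003300. Its r with the summed copies was 0.999 over the 9 libraries. It measured 26.6, 27.2 and 25.5 FPKM at 0 h, 154.4, 178.5 and 195.7 FPKM at 6 h, and 1984, 2139 and 3332 FPKM at 24 h. At 0 h and 6 h its range overlapped that of MD04G1003400, with ratios to it of 1.11 ± 0.167 and 0.990 ± 0.106, and at 24 h it was higher in each library, with a ratio of 1.30 ± 0.0427 (SD, n = 3 each). Its log2 difference between 24 h and 0 h was 6.46, rank 13 of the tested genes, a description only, since the gene was picked for its likeness to copies that rise. Its gene model, at 2736 bases, was longer than those of the copies, which were 1511 bases for MD04G1003300, 1515 for MD04G1003400 and 1382 for MD13G1285100. The files give no function for it and none is assigned here, so whether it belongs with the copies is not known from these data. The shares given above depend on which loci are summed: with MD04G1003000 in the sum, an alternative chosen after seeing the data, MD04G1003400 would hold 42.2%, 45.2% and 33.8% at the 3 times, MD04G1003300 6.88%, 5.61% and 16.1%, and MD13G1285100 4.34%, 4.55% and 6.12%. MD04G1003000 itself would hold 46.6%, 44.6% and 43.9%. MD06G1132300, the next gene in likeness (r = 0.999), followed the same course with a much smaller range, from 63.8 ± 3.62 over 153.2 ± 4.15 to 537.6 ± 91.1 FPKM (SD, n = 3 each).

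Neighbouring loci were described by their counts. Within 10 identifier steps of the chromosome 4 copies lie 20 other listed loci, of which 13 passed the filter on mean FPKM. At 6 h against 0 h, 3 of the 13 were called higher and 0 lower by limma, against 9.36% of all tested genes called higher and 1565 of 25362 lower. MD04G1003000 was one of them, and another, named after its values were seen, was MD04G1002500, at 296.3, 1118 and 192.7 FPKM on average at the 3 times. At 24 h against 0 h, 2 of the 13 were called higher and 0 lower by limma. The share called higher was near the 11.9% of all tested genes, of which 2004 of 25362 were called lower. MD04G1003000 was one of the 2 called higher, and the other had a log2 difference of 2.43. The median over the 13 was 0.03. Around MD13G1285100, 17 loci are listed and 9 passed the filter. At 6 h against 0 h, 1 of the 9 was called higher and 0 lower, beside the same 9.36% of all tested genes called higher. At 24 h against 0 h, limma called 0 of the 9, beside 5014 of the 25362 tested genes called in either direction. Not being called does not show that a locus was unchanged. The log2 differences of the 9 ran from -0.70 to 0.50.

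**Figure D5:**
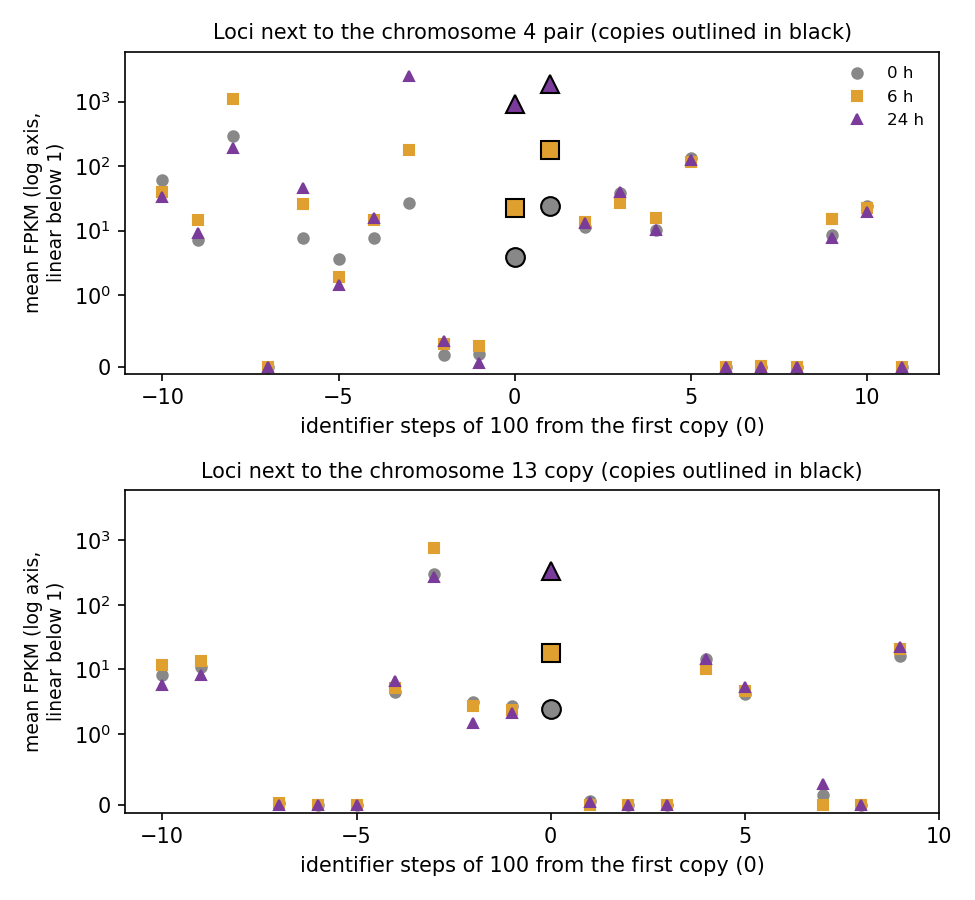
Mean FPKM (log axis, linear below 1; n = 3) at 0 h, 6 h and 24 h for the loci within 10 identifier steps of the chromosome 4 copies (top) and of the chromosome 13 copy (bottom). Outlined symbols are the chalcone synthase copies; MD04G1003000, 3 steps below the first copy, is the single other locus in the windows with a mean above 1000 FPKM at 24 h.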

How the data were processed

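RNA from 9 peel libraries was sequenced. Per the submitters' processing notes, HISAT2 and Cufflinks were used. Of versions, build, annotation, filters, strand setting and read assignment between similar genes, the sources used here say nothing. The deposited values are FPKM per gene and library, computed by the authors. Whole reads and gene lengths were recovered from the FPKM steps: for all 37142 genes above 0, 100% of the values were whole within a tolerance of 0.01 reads. Each length was chosen to make the reads whole and was not checked against an annotation. The library denominators recovered were 16.2 to 19.03 M, and differed from the reads in genes as given above. The 25362 genes averaging 1 FPKM or more were tested on log2(FPKM + 1) with limma 3.58.1 (R 4.3.3), 1 mean per time, intensity trend and Benjamini-Hochberg adjustment over all tested genes; the script was tested on simulated data. Pairs of copies were compared with exact permutation tests in Python 3.11.15. Named genes were the copies and the 2 genes correlating best with their sum. Other pathway genes are not listed, since no identifier could be paired with a function. The rule for the copies uses identifiers only, but the copies, lists and tests were proposed with earlier results of these data known. Alternatives were other pseudocounts, filters, scales, blocks, models and omitted libraries.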

Additional observations from a re-analysis of the deposited data

Results flagged for a closer look

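The change against 0 h differed between the light times for each of the 3 copies, by the test of 24 h against 6 h. By limma, MD04G1003300 was higher at 24 h by 5.27 log2 units (adjusted p = 1.19e-08), MD04G1003400 by 3.38 (adjusted p = 1.08e-07) and MD13G1285100 by 4.16 (adjusted p = 3.59e-09). Each of these rises was seen in every 24 h library against every 6 h library, which held for 30.8% of all tested genes.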

How the results depend on the processing

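The 9 log2 differences of the copies kept their direction and their call under all 189 combinations of result and alternative. With a pseudocount of 5 those of 6 h against 0 h were as low as 1.60 for MD04G1003300 and 1.62 for MD13G1285100; without a pseudocount they were 2.51 and 2.86. That setting, and limma-voom with summed reads as library size, were chosen after seeing the data. At 24 h against 0 h, limma-voom with summed reads gave 7.61, 6.06 and 6.86 for MD04G1003300, MD04G1003400 and MD13G1285100. With the recovered denominators it gave 7.83, 6.28 and 7.08. Omitting single libraries gave 7.29 to 7.62, 6.02 to 6.35 and 6.48 to 6.68 for MD04G1003300, MD04G1003400 and MD13G1285100 at 24 h against 0 h. The 36 alternatives on levels between copies changed no order. Of 39 on ratios over time, 1 crossed the threshold: with the replicate block, MD04G1003300 to MD13G1285100 had an adjusted p of 0.0556 by the exact permutation test, where permutation within replicate numbers cannot give a raw p under 0.0278. The replicate block in limma changed none of the 9 calls of the copies, and the genes called became 3941, 5019 and 4175. Same-numbered libraries did not deviate together (9 pairs, correlations from -0.0627 to 0.0762), so the numbers were not taken as pairs. With a pseudocount of 5, which shrinks low genes by construction, 2046, 2697 and 2398 genes were called in the 3 comparisons in place of 3939, 5014 and 4173, and 112 in place of 219 were higher in all 3. At 0 h, depth limits the lower copies to 50 to 123 reads per library.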
